A study of Homo sapiens with 6 samples.

Results

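Cytosolic ribosomal protein genes, which encode the protein parts of the ribosome outside mitochondria, were followed in HL-60, an established human promyelocytic leukaemia line. They were the symbols made of RPL or RPS and a number, with an optional A, X, L or L1 ending, together with RPSA, RPLP0, RPLP1 and RPLP2. RPS27A was left out, and at least 60 counts over the 6 libraries were required. That gave 81 of 43424 symbols: 46 genes of the large subunit, 30 of the small subunit and 5 paralogs (RPL7L1, RPL22L1, RPL26L1, RPL39L and RPS27L). RPL39L with 565 counts in all and RPL26L1 with 1352 lay closest above the minimum, whereas RPL3L with 2 counts and RPL10L with 1 lay below it. All 81 had reads in every library and passed the filter on low counts. FAU, RPS27A, RPL36AL and RACK1 also belong to the ribosome but fall outside the naming rule, and they are described apart.

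One group of 3 libraries came from cells kept for 6 months in CIP, the plant Corydalis incisa (Thunb.) Pers., raised gradually over a range of 2 to 20 µg/ml, and described by the submitters as a CIP-resistant line. The other 3 came from cells kept in DMSO, the vehicle, for the same 6 months. The series set out to find genes involved in the differentiation that CIP induces in acute myeloid leukaemia. Both groups grew in RPMI-1640 with serum, and the labels do not say whether either line was a single clone, whether CIP was present at harvest, or whether replicates were separate cultures. The p-values therefore measure only the spread between these libraries, which may be technical.

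Depth was 9314584 to 10868396 counts in the CIP libraries and 8143657 to 9759687 counts in the DMSO libraries. QuantSeq reads the 3′ end of each polyadenylated RNA, so levels are given as CPM (counts scaled to a common library size, after TMM adjustment) without division by length. Fold changes are log2 CIP over DMSO with their standard error (SE), and a gene was called at an edgeR quasi-likelihood adjusted p under 0.05 over all 12844 genes tested. The identity of the DMSO libraries went against the label in part. MPO, the granule peroxidase that defines promyelocytes, had 8667 ± 282 CPM in CIP libraries and 1.12 ± 0.32 CPM in DMSO libraries (SD, n = 3 each), and MYC, amplified in HL-60, had 280 ± 52.2 CPM and 41.8 ± 3.90 CPM. Of the 7 myeloid markers, 4 were higher and 3 lower. The lower ones were CTSG (95.2 ± 4.77 CPM in CIP libraries and 653 ± 28.1 CPM in DMSO libraries), ELANE (332 ± 32.9 and 591 ± 48.6 CPM) and AZU1 (25.2 ± 4.85 and 44.1 ± 5.84 CPM). All 7 summed to 8825 to 9502 CPM in CIP libraries, mostly MPO, and 1764 to 1917 CPM in DMSO libraries. Sums here and below are of library totals without TMM. The 7 lymphoid markers summed to 3.50 to 4.55 CPM in CIP libraries and 86.1 to 108 CPM in DMSO libraries, mostly NKG7, with MS4A1 at 0 in all 6 libraries and CD3D and CD3E at 0 in 5 of 6. The 5 monocyte markers summed to 14.9 to 21.6 CPM and 289 to 304 CPM, mostly LYZ, with CD14 at 0 in all DMSO libraries. The 7 stromal and epithelial markers summed to 22.3 to 40.3 CPM and 78.5 to 145 CPM, and the 7 erythroid markers stayed at 0 to 0.184 CPM and 0 to 0.123 CPM. The part these differences have in the ribosomal protein results was not tested, and fewer cells of a type and less RNA per cell cannot be told apart in bulk RNA.

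A ribosome holds a single copy of most of its proteins, and cells make them together. Most of their mRNAs begin with a C followed by a run of pyrimidines, the 5′ terminal oligopyrimidine (TOP) tract, through which the kinase mTOR and the RNA-binding protein LARP1 control their translation and stability. MYC raises transcription of ribosome genes, and proteins that are not built in are degraded or, for RPL5 and RPL11, bind MDM2. The L paralogs are copies of single subunit genes that are usually expressed at lower levels or in fewer tissues.

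The ribosomal protein genes took a larger part of the library in CIP than in DMSO cells, and most single genes were higher. They held 22.0%, 22.0% and 22.5% of all counts in CIP libraries, against 15.5%, 16.1% and 15.2% in DMSO libraries. The 3 CIP libraries lay above all 3 DMSO libraries. Of the 81 genes, 66 were higher in CIP and 11 lower, and 4 did not pass, where 73.1% of all genes tested were called, 34.9% higher and 38.2% lower. The CIP libraries lay wholly above the DMSO libraries for 65 members and wholly below them for 11, beside 36.1% and 39.3% of all genes (75.5% in either direction). With library totals alone in place of TMM, 61 members were higher and 14 lower, and over all genes 3459 were higher and 5913 lower, in place of 4482 and 4912. The members' median log2 fold change was 0.77, beside -0.03 over all genes tested. Among 392 other genes at least as abundant as the least abundant subunit gene, 82.7% were called, 47.4% were higher and 35.2% lower, with a median of 0.11. Genes encoded by mitochondrial DNA held 9.57% to 10.7% of counts in CIP libraries and 8.70% to 8.91% in DMSO libraries, and 6 of those 13 mRNAs were higher and 4 lower.

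**Figure D1:**
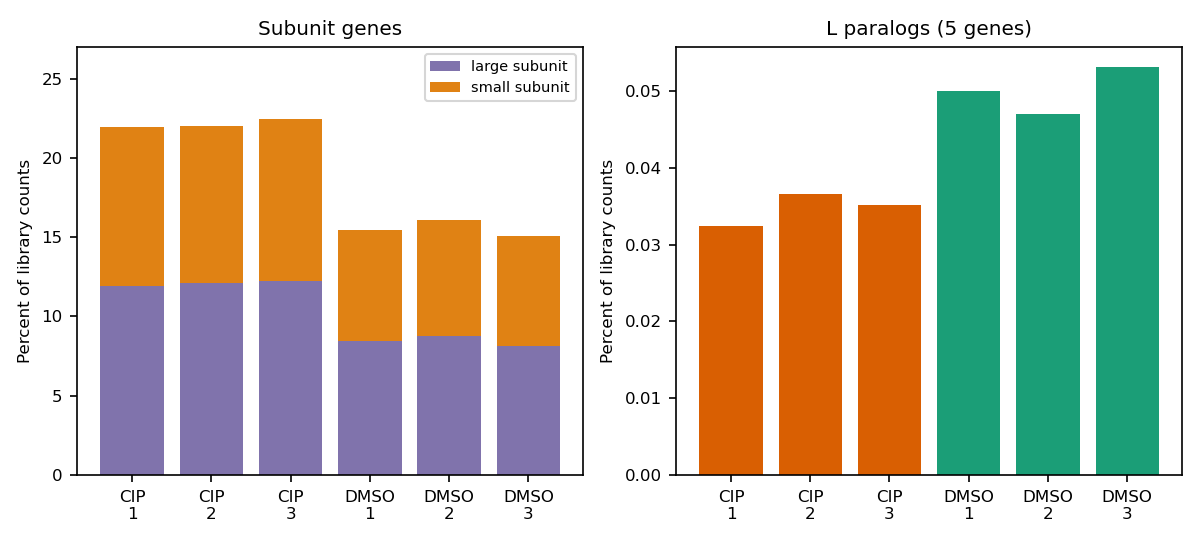
Percent of each library's counts on large and small subunit genes (left, stacked) and on the 5 L paralogs (right), for 3 CIP and 3 DMSO libraries. Subunit genes take more of every CIP library than of any DMSO library, and the L paralogs less.

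Most genes of both subunits were higher, and no test of a difference between the subunits was made. Of 46 large subunit genes, 39 were higher and 5 lower, with a median log2 fold change of 0.82. Of 30 small subunit genes, 25 were higher and 3 lower, with a median of 0.72. Among all genes tested, 34.9% were higher and 38.2% lower. Large subunit genes made up 54.2%, 54.9% and 54.4% of the members' counts in CIP libraries, against 54.7%, 54.2% and 53.8% in DMSO libraries, so the groups overlapped. Of the L paralogs, 2 were higher and 3 lower, with a median of -0.43, and together they took 0.0324% to 0.0366% of CIP libraries and 0.0470% to 0.0531% of DMSO libraries.

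**Figure D2:**
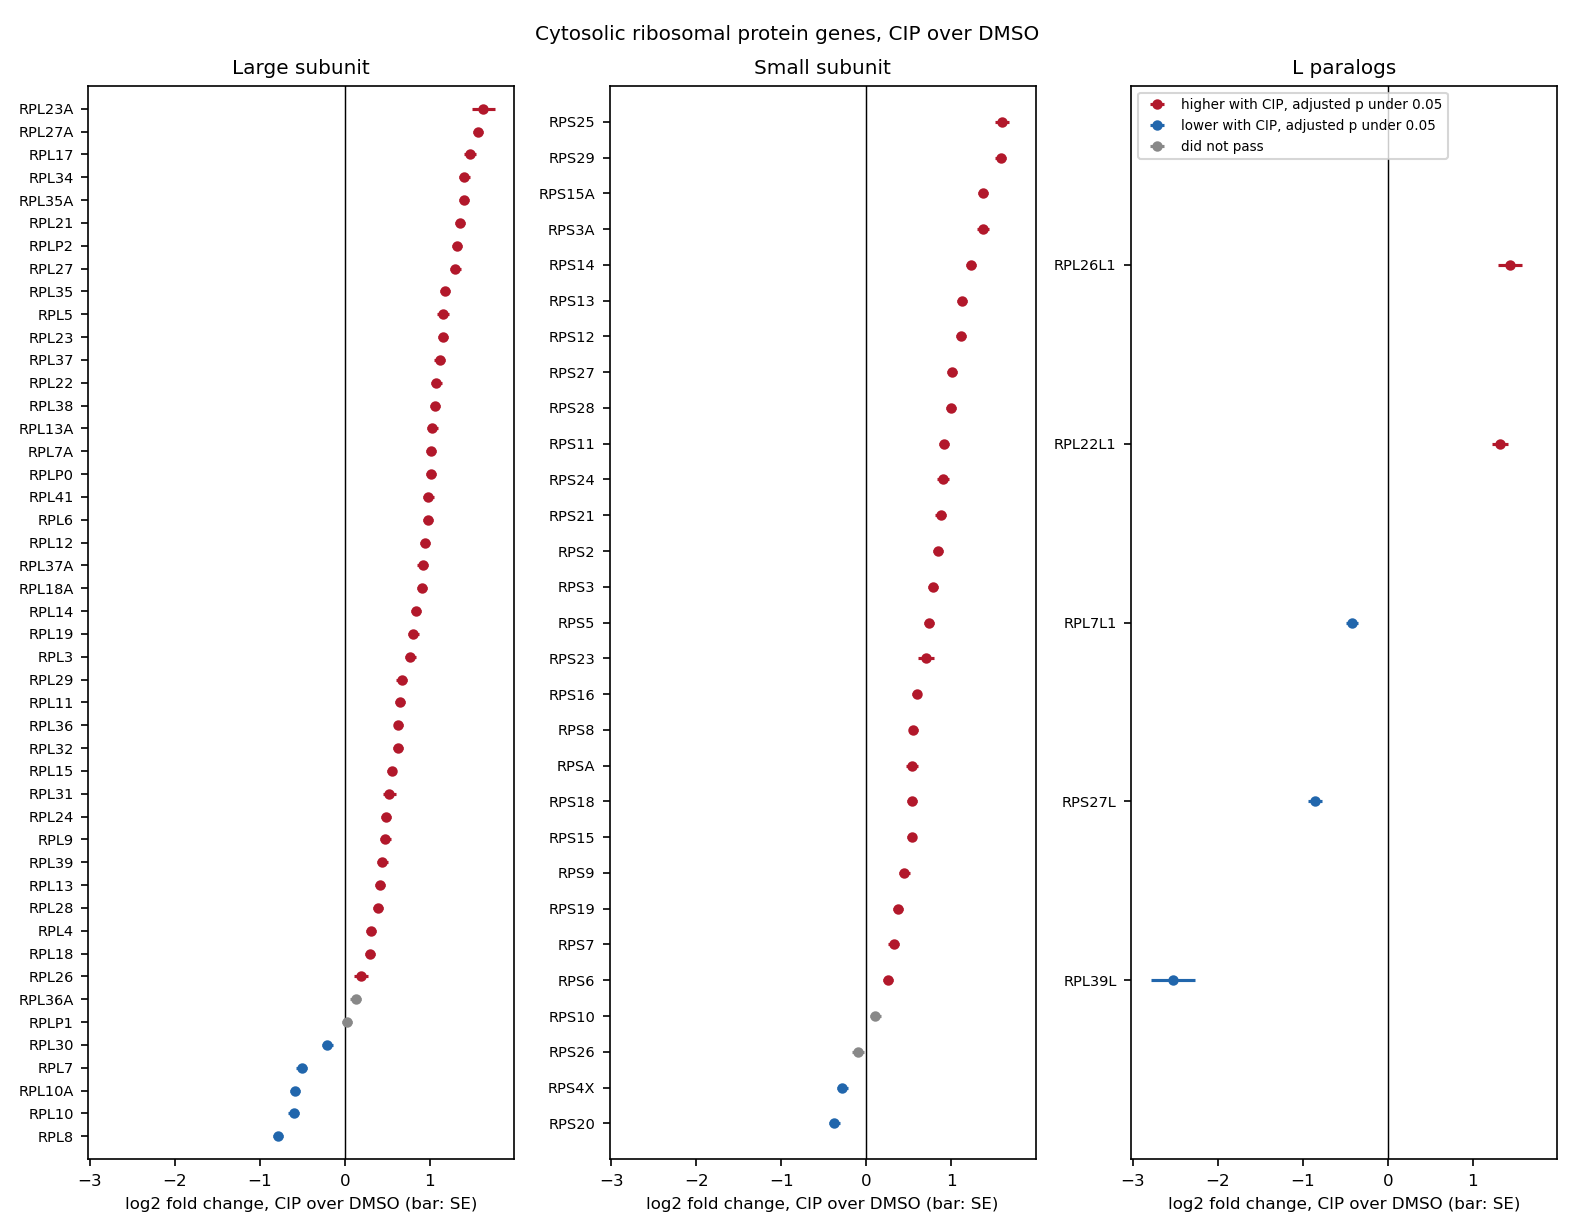
Log2 fold change, CIP over DMSO, of the ribosomal protein genes named here (points; bars, SE), coloured by the edgeR call, in large subunit, small subunit and L paralog panels. In both subunits most genes lie right of 0 and a few lie left of it, while the 5 paralogs spread more widely than the subunit genes.

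The subunit genes did not move as a block. Among the 64 that were higher, folds ran between 1.14 and 3.09, and 25 were at least 2-fold higher, 17 of the large and 8 of the small subunit, beside 15.0% of all genes tested. Among the 8 that were lower, folds ran between 1.16 and 1.72, and 0 reached 2-fold. The SD of the log2 fold changes over the 76 genes was 0.57, whereas the median SE of a single gene was 0.06. Replicates were close, with a median coefficient of variation over libraries of 4.84% in CIP and 4.47% in DMSO. The ratio of the highest to the lowest mean level was 65.3 in CIP libraries and 27.3 in DMSO libraries, and Spearman's rho between the 76 mean levels of the groups was 0.839, as a description.

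RPS29, a small zinc-binding protein of the small subunit head, was the most abundant member in CIP libraries, and second to RPLP1 in DMSO libraries (chromosome 14, 49570988 to 49598710; positions are GRCh38, RefSeq). Its level was 18037, 16584 and 19303 CPM in CIP libraries, against 5424, 6610 and 6011 CPM in DMSO libraries. The groups were far apart, and log2 CIP over DMSO was 1.58 ± 0.07 (edgeR adjusted p = 1.12e-19). RPS29 alone made up 6.98% to 7.84% of the members' counts in CIP libraries and 3.82% to 4.39% in DMSO libraries. It overlaps RN7SL1, a non-coding RNA gene that had 277, 321 and 313 counts in CIP libraries and 220, 272 and 241 counts in DMSO libraries.

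The starts of some genes are shown so that TOP tracts of members with different calls can be compared. Each line gives 20 bases before and 20 from the annotated RefSeq start (GRCh38.p14), on the gene's strand, with the longest run of C and T in capitals. The first 4 genes were higher in CIP, RPLP1 did not pass, and RPL10A, RPL10 and RPS4X were lower.
RPS29 (chr14:49598691-49598730, minus strand): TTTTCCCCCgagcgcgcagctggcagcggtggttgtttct
RPL27A (chr11:8682772-8682811, plus strand): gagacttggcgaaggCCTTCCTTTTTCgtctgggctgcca
RPS25 (chr11:119018324-119018363, minus strand): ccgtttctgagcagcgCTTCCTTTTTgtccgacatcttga
RPS14 (chr5:150449720-150449759, minus strand): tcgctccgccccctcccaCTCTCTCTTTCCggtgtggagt
RPLP1 (chr15:69452798-69452837, plus strand): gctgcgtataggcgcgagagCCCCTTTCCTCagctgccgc
RPL10A (chr6:35468381-35468420, plus strand): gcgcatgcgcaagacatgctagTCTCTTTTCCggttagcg
RPL10 (chrX:154398045-154398084, plus strand): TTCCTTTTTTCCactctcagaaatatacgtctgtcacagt
RPS4X (chrX:72277229-72277268, minus strand): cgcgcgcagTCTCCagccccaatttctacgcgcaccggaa

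A promoter sequence was matched for 65 members. The annotated start was a C followed by at least 4 more C or T in 43 of 65 members (66.2%), against 5.59% of 10039 tested genes with a promoter. The share was 40 of 56 among members that were higher, 3 of 4 among those that did not pass and 0 of 5 among those that were lower (RPL10, RPL10A, RPS4X, RPL7L1 and RPS27L). A run of at least 8 C or T anywhere within 20 bases of the start, on the gene's strand, was present in 46 of 56 higher and 2 of 5 lower members, and in 16.4% of tested genes. RPL10A and RPL10 are those 2: each has a run of 10 or 12 bases near, but not at, the annotated start. The start of RPS29 likewise misses the strict pattern, with a 9-base run upstream. These matches describe letters in a window and not transcript ends measured here. The 300-base promoter window held the ETS-factor motif CCGGAAG, on either strand, in 33.8% of the 65 members and 20.5% of tested genes, and the YY1 motif AAGATGG in 13.8% and 8.15%.

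By role, the large subunit began with the stalk that recruits elongation factors. RPLP0, its base on chromosome 12 (120196699 to 120201111), had 4794, 4701 and 4848 CPM in CIP libraries, against 2442, 2398 and 2269 CPM in DMSO libraries (log2 fold change 1.01 ± 0.06, edgeR adjusted p = 3.61e-17). RPLP2, on chromosome 11 (809967 to 812876), had 4436, 4172 and 4438 CPM in CIP libraries, against 1672, 1793 and 1756 CPM in DMSO libraries (1.32 ± 0.06, edgeR adjusted p = 3.64e-20). Its partner RPLP1, on chromosome 15 (69452818 to 69456205), had 6320, 6230 and 6440 CPM in CIP libraries, against 6110, 6386 and 6198 CPM in DMSO libraries. RPLP1 libraries overlapped and the gene did not pass (0.02, edgeR adjusted p = 0.726). RPLP1 and RPLP2 proteins sit on the ribosome as pairs, and the ratio of their mRNAs was 1.42, 1.49 and 1.45 in CIP libraries, against 3.66, 3.56 and 3.53 in DMSO libraries. The other tested genes had a median log2 fold change of -0.75 on chromosome 15 and 0.42 on chromosome 11. The part of these chromosome-wide differences in the ratio was not tested. RPL12, at the stalk base, averaged 1557 ± 62.2 CPM in CIP libraries and 809 ± 35.1 CPM in DMSO libraries (SD, n = 3 each; log2 fold change 0.95 ± 0.06). Thus 3 of the 4 stalk genes were higher, beside 64 of all 76 subunit genes and 34.9% of all genes tested.

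RPL5 and RPL11, which carry the 5S ribosomal RNA into the large subunit and can bind MDM2, were both higher. RPL5 (chromosome 1, 92831986 to 92841924) averaged 4665 ± 385 CPM in CIP libraries and 2097 ± 214 CPM in DMSO libraries (SD, n = 3 each; log2 fold change 1.15 ± 0.07, edgeR adjusted p = 2.56e-15). RPL11 (chromosome 1, 23691779 to 23696835) averaged 3877 ± 181 CPM and 2476 ± 169 CPM (0.65 ± 0.06, edgeR adjusted p = 2.1e-11). All 8 genes that line the peptide tunnel or its exit were higher, with a median log2 fold change of 0.67, and 7 of them had libraries that did not overlap. By comparison, 64 of all 76 subunit genes were higher. Of all genes tested, 34.9% were higher and 36.1% had CIP libraries wholly above the DMSO libraries.

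RPL23A, at the tunnel exit, where the signal recognition particle docks, had the largest increase of all members and a wide spread over the CIP libraries. It had 3240, 4174 and 2911 CPM in CIP libraries, against 1153, 1034 and 1150 CPM in DMSO libraries (chromosome 17, 28719985 to 28724359; 1.63 ± 0.13, edgeR adjusted p = 1.23e-05). All CIP libraries lay above the DMSO libraries, and the second CIP library was the highest. RPL17, also at the exit, had 605, 596 and 709 CPM in CIP libraries, against 231, 242 and 213 CPM in DMSO libraries (chromosome 18, 49488481 to 49492465; 1.48 ± 0.07, edgeR adjusted p = 2.53e-19). RPL26 gave the weakest call: 2096, 2222 and 2598 CPM in CIP libraries, against 2015, 2255 and 1793 CPM in DMSO libraries (chromosome 17, 8377516 to 8383193; 0.19 ± 0.08, edgeR adjusted p = 0.0441). Its libraries overlapped, and the call was lost in 8 of the 18 alternative settings, among them those without the third CIP library (adjusted p = 0.138), the first DMSO library (0.114) or the third DMSO library (0.252).

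RPL27A, a protein of the large subunit core, had libraries close together within each group, with 8045, 7921 and 8049 CPM in CIP libraries, against 2628, 2783 and 2693 CPM in DMSO libraries (chromosome 11, 8682792 to 8689872; 1.57 ± 0.06, edgeR adjusted p = 1.42e-22). RPL34 on chromosome 4 (108620576 to 108630484) averaged 4305 ± 299 CPM in CIP libraries and 1627 ± 85.1 CPM in DMSO libraries (1.40 ± 0.06). RPL35A, mutated in some Diamond-Blackfan anaemia, averaged 4457 ± 245 CPM and 1689 ± 113 CPM (chromosome 3, 197950190 to 197956610; 1.40 ± 0.06). RPL37A, second to RPS29 in CIP libraries and behind RPLP1 and RPS29 in DMSO libraries, averaged 10166 ± 896 CPM and 5397 ± 388 CPM (chromosome 2, 216498844 to 216504086; 0.91 ± 0.07, SD over n = 3 each). All 4 of these genes had CIP libraries wholly above the DMSO libraries, which was a condition for naming RPL34 and RPL35A.

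In the small subunit, the 4 genes at the mRNA entry and decoding site were all higher, with a median log2 fold change of 0.74. RPS2 averaged 3328 ± 241 CPM in CIP libraries and 1857 ± 88.3 CPM in DMSO libraries, and RPS3, at the entry, 4291 ± 133 CPM and 2488 ± 120 CPM (SD, n = 3 each). Of the 5 genes at the exit and platform, 4 were higher and RPS26 did not pass. These counts stand beside 64 higher of all 76 subunit genes and 34.9% of all genes tested. RPS14, which is lost with the 5q deletion of myelodysplasia, had 6057, 5939 and 5827 CPM in CIP libraries, against 2553, 2553 and 2494 CPM in DMSO libraries (chromosome 5, 150442635 to 150449739; 1.23 ± 0.06, edgeR adjusted p = 1.12e-19). The groups were wide apart for RPS14. RPS28 averaged 5467 ± 213 CPM in CIP libraries and 2742 ± 112 CPM in DMSO libraries (1.00 ± 0.06).

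RPS25, which many viral entry sites on mRNA need to bind the ribosome, had 943, 1210 and 935 CPM in CIP libraries, against 356, 334 and 330 CPM in DMSO libraries (chromosome 11, 119015717 to 119018343; 1.60 ± 0.08, edgeR adjusted p = 4.38e-15). The second CIP library was the highest, as for RPL23A. RPS15A averaged 2085 ± 24.3 CPM in CIP libraries and 804 ± 31.0 CPM in DMSO libraries (1.38 ± 0.06). RPS12 averaged 5775 ± 86.4 CPM and 2662 ± 73.8 CPM (1.12 ± 0.06). Both also had groups that did not overlap, which was a condition for naming RPS15A. Of the 5 genes of the beak and head, RPS12, RPS19 and RPS29 were higher, RPS20 was lower and RPS10 did not pass, with a median log2 fold change of 0.37. Among all genes tested, 34.9% were higher and 38.2% lower. Smaller changes were found for RPS19, the gene most often mutated in Diamond-Blackfan anaemia, with 5425 ± 202 CPM and 4190 ± 88.6 CPM (0.37 ± 0.06, edgeR adjusted p = 5.94e-07). RPS6, the protein that S6 kinases phosphorylate, averaged 3339 ± 101 CPM and 2790 ± 182 CPM (0.26 ± 0.06, edgeR adjusted p = 0.000254), a call that was lost when library totals alone were used for scaling (0.632).

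Among the members linked to Diamond-Blackfan anaemia, an inherited failure of red cell production, 16 were higher, and RPS10 and RPS26 did not pass. These do not cover the whole list, part of which is not reported here. Over all genes tested, 34.9% were higher.

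**Figure D3:**
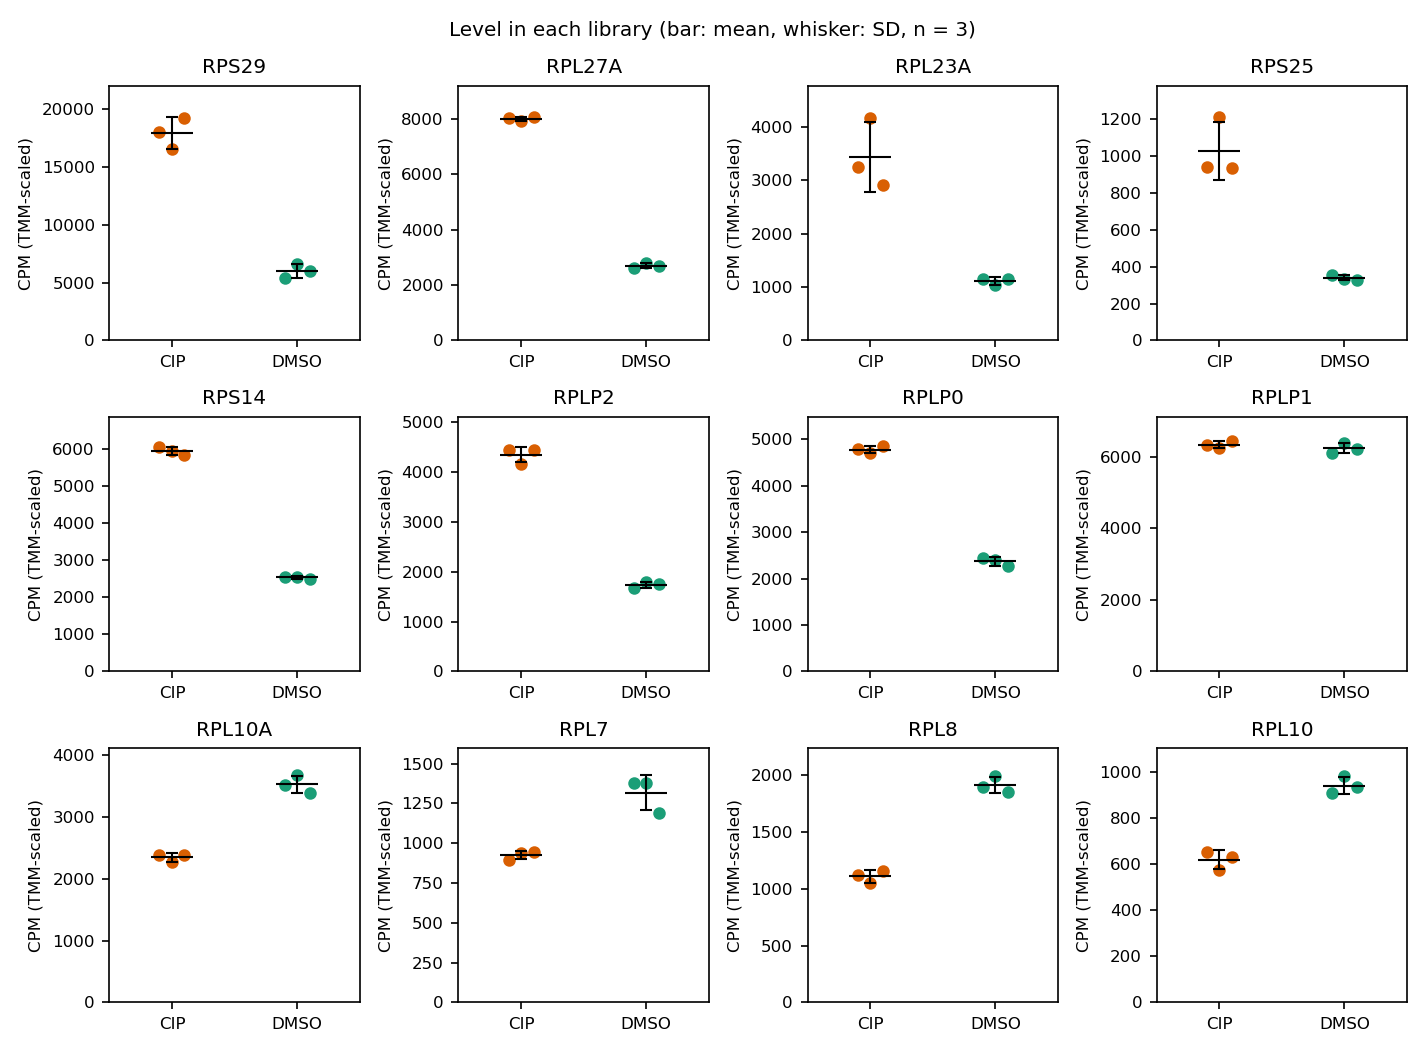
Level of 12 members in each library (points; bar, mean; whisker, SD; n = 3 each; CPM after TMM scaling, axis from 0), CIP left and DMSO right. The CIP libraries lie above the DMSO libraries in the first 7 panels, overlap them for RPLP1 and lie below them in the last 4.

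Besides RPLP1, 3 members did not pass. RPS26, at the mRNA exit and the least abundant subunit gene in CIP libraries, had 253, 292 and 281 CPM in CIP libraries, against 291, 308 and 286 CPM in DMSO libraries (-0.10 ± 0.07, edgeR adjusted p = 0.186). RPS10, on the head, averaged 1874 ± 90.9 CPM and 1740 ± 71.9 CPM (SD, n = 3 each; 0.11 ± 0.06, edgeR adjusted p = 0.106). RPL36A, near the tRNA exit site, had 924, 914 and 1050 CPM in CIP libraries, against 872, 932 and 837 CPM in DMSO libraries (0.13 ± 0.06, edgeR adjusted p = 0.0703). The groups overlapped for all 3. Calls that were missed here were made without the second CIP library for RPS10 (0.0489) and RPL36A (0.0159), and also without the first CIP (0.0451) or second DMSO library (0.0406) for RPL36A. With library totals alone, RPS26 was called lower (log2 fold change -0.33, edgeR adjusted p = 2.6e-05).

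For the 8 subunit genes that were lower, the CIP libraries lay wholly below the DMSO libraries, though by a narrow margin for RPS4X and RPL30. RPL8, near the peptidyl transferase centre, fell most, with 1126, 1049 and 1154 CPM in CIP libraries, against 1896, 1989 and 1853 CPM in DMSO libraries (chromosome 8, 144789769 to 144792390; -0.79 ± 0.06, edgeR adjusted p = 9.02e-14). RPL10, which is added in the last step of large subunit assembly and is mutated in some T-cell leukaemias, had 653, 573 and 630 CPM in CIP libraries, against 906, 982 and 931 CPM in DMSO libraries (chromosome X, 154398065 to 154402339; -0.60 ± 0.06, edgeR adjusted p = 1.89e-10). For both, every CIP library lay below every DMSO library. RPL10A, part of the mobile L1 stalk, had 2378, 2264 and 2383 CPM in CIP libraries, against 3513, 3666 and 3391 CPM in DMSO libraries (chromosome 6, 35468401 to 35470780; -0.59 ± 0.06, edgeR adjusted p = 5.62e-11). RPL7 had 895, 937 and 944 CPM in CIP libraries, against 1381, 1379 and 1189 CPM in DMSO libraries (chromosome 8, 73290242 to 73294466; -0.51 ± 0.06). The libraries of these genes did not overlap either.

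RPS20, on the head, averaged 2093 ± 162 CPM in CIP libraries and 2716 ± 180 CPM in DMSO libraries (chromosome 8, 56067254 to 56074506; -0.38 ± 0.06, edgeR adjusted p = 3.1e-06). RPS4X, which has a copy on the Y chromosome outside the naming rule, averaged 2439 ± 158 CPM and 2970 ± 232 CPM (chromosome X, 72272042 to 72277248; -0.28 ± 0.06, SD over n = 3 each, edgeR adjusted p = 0.000172). RPL30 had 2047, 2192 and 1756 CPM in CIP libraries, against 2356, 2269 and 2301 CPM in DMSO libraries (chromosome 8, 98041721 to 98045545; -0.21 ± 0.07, edgeR adjusted p = 0.00501). The third CIP library was the lowest for RPL30, and without it the gene did not pass (-0.11, edgeR adjusted p = 0.0926).

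Of the subunit genes that were lower, 6 lie on chromosomes 8 and X, which were singled out after the values were seen. All 4 subunit genes on chromosome 8 were lower, where 77.1% of 420 tested genes were lower. Their median log2 fold change was -0.44, beside -1.06 for the other 416 tested genes. On chromosome X, RPL10 and RPS4X were lower, RPL36A did not pass and RPL39 was higher, where 59.2% of 400 tested genes were lower. The medians there were -0.08 for the subunit genes and -0.57 for the other genes.

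On all 21 chromosomes with a subunit gene, the median of the subunit genes lay above that of the other tested genes, by 0.39 to 1.43 on the log2 scale. Of the 76 subunit genes, 72 lay above the other genes of their chromosome, the exceptions being RPL10, RPL10A, RPS26 and RPS6. Chromosome 18 showed the opposite setting, where RPL17 had a log2 fold change of 1.48 and the other 174 tested genes a median of 1.04. Over the 76 genes, the log2 fold change and the median of the other genes of the chromosome had Pearson's r of 0.698 and Spearman's rho of 0.592. Over the 21 chromosomes the medians gave r of 0.811 and rho of 0.701. All points share the same 6 libraries, so these are descriptions, and the part of the chromosome-wide differences in the members' values was not tested.

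**Figure D4:**
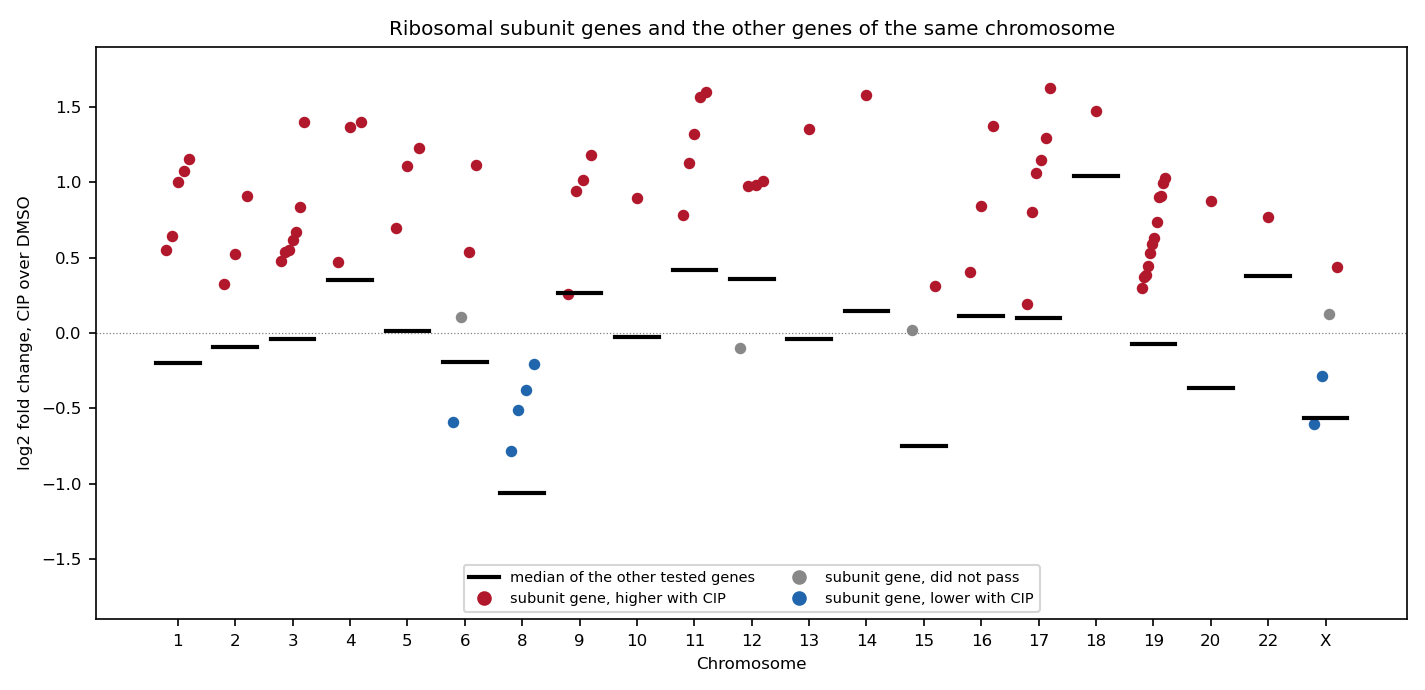
Log2 fold change, CIP over DMSO, of large and small subunit genes (points, coloured by the edgeR call) by chromosome, with the median of the other tested genes of that chromosome (black line). Subunit genes lie above the line on most chromosomes, and the called decreases sit where the line is below 0.

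Other properties tracked the changes less. Coding length had Pearson's r of -0.22 with the log2 fold change over 76 genes, beside -0.017 over 10757 other protein-coding genes. Level had r of 0.101. Ribosomal protein genes have many processed pseudogenes, and 47 subunit genes share a 50-base stretch of their last 200 bases with another gene's transcript (GENCODE release 29). Their median was 0.74, with 39 higher, beside 0.81, with 25 higher, for the other 29 genes. Reads given to 30 symbols of pseudogenes came to 7713, against 11068343 for the members. How reads with several matches were counted is not stated in the labels or headers, so levels of the 47 genes remain uncertain. Of the members, 24 overlap another annotated gene other than a small RNA gene, and reads of the pair cannot be separated. Among the named members these include RPL39L (with RPL39P19), RPL23A (TLCD1), RPL27A (TRIM66), RPS25 (CENATAC), RPL17 (RPL17-C18orf32), RPL26L1 (RPL26L1-AS1), RPL35A (DRC9) and RPL10 (DNASE1L1).

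The 5 L paralogs were all called, in both directions, and all had libraries that did not overlap. Both traits were common here, as 73.1% of all genes tested were called and 75.5% had libraries that did not overlap. RPL39L is a copy of the tunnel protein RPL39 whose mouse counterpart serves sperm formation. RPL39L fell to 12, 33 and 36 counts in CIP libraries, against 182, 168 and 134 counts in DMSO libraries. That is 1.39, 3.37 and 3.62 CPM in CIP libraries, against 18.0, 16.1 and 15.1 CPM in DMSO libraries (chromosome 3, 187120948 to 187139496; -2.53 ± 0.26, edgeR adjusted p = 1.64e-10). It was the largest decrease among the members. RPL39 itself rose, with 396, 475 and 421 CPM in CIP libraries, against 305, 327 and 322 CPM in DMSO libraries (chromosome X, 119786504 to 119791630; 0.44 ± 0.07, edgeR adjusted p = 5.52e-07). RPL39L made up 0.348%, 0.704% and 0.853% of the pair's counts in CIP libraries, against 5.56%, 4.69% and 4.49% in DMSO libraries (exact permutation test, 2-sided p = 0.1, the smallest that 3 against 3 libraries allow).

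RPS27L, a copy of the zinc-finger protein RPS27 and a known target of p53, also moved against its parent. RPS27L had 116, 139 and 128 CPM in CIP libraries, against 220, 213 and 260 CPM in DMSO libraries (chromosome 15, 63148249 to 63157477; -0.86 ± 0.08, edgeR adjusted p = 1.25e-11). RPS27 had 2334, 2367 and 2497 CPM in CIP libraries, against 1185, 1247 and 1156 CPM in DMSO libraries (chromosome 1, 153990762 to 153992155; 1.00 ± 0.06, edgeR adjusted p = 8.91e-17). The share of RPS27L in the pair was 4.73%, 5.53% and 4.86% in CIP libraries, against 15.6%, 14.6% and 18.4% in DMSO libraries (exact permutation p = 0.1). On chromosome 15, 62.2% of the 431 tested genes that are no subunit gene were lower.

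The coding sequences of these 2 pairs are shown, with the bases that differ within a pair in capitals (GENCODE release 29, GRCh38).
RPL39L: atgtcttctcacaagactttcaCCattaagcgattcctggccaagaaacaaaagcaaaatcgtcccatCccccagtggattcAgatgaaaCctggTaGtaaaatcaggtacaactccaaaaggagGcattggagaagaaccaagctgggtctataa
RPL39: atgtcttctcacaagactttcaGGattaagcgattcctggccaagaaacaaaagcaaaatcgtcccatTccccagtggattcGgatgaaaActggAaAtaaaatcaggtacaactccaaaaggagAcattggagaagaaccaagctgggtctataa
RPS27L: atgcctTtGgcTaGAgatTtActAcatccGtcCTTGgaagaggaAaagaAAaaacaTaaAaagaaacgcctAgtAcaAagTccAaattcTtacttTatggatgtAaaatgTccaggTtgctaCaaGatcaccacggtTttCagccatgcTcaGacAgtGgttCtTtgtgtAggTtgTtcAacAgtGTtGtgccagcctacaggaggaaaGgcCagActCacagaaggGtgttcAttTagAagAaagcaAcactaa
RPS27: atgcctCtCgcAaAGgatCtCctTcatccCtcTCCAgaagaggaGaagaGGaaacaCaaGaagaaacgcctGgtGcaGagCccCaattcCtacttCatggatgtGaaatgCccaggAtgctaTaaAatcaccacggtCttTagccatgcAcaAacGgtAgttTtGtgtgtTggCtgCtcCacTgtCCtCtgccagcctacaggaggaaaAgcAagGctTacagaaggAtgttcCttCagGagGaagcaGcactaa
RPL39L and RPL39 differ at 8 of 156 bases (94.87% identical) and RPS27L and RPS27 at 56 of 255 (78.04%). In the last 200 bases of the annotated transcripts, neither RPL39L nor RPS27L shares a 50-base stretch with another gene's transcript. Their parents do, in 6.62% of the 50-base windows for RPL39 and 58.9% for RPS27. Where the reads fall within these transcripts was not examined.

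**Figure D5:**
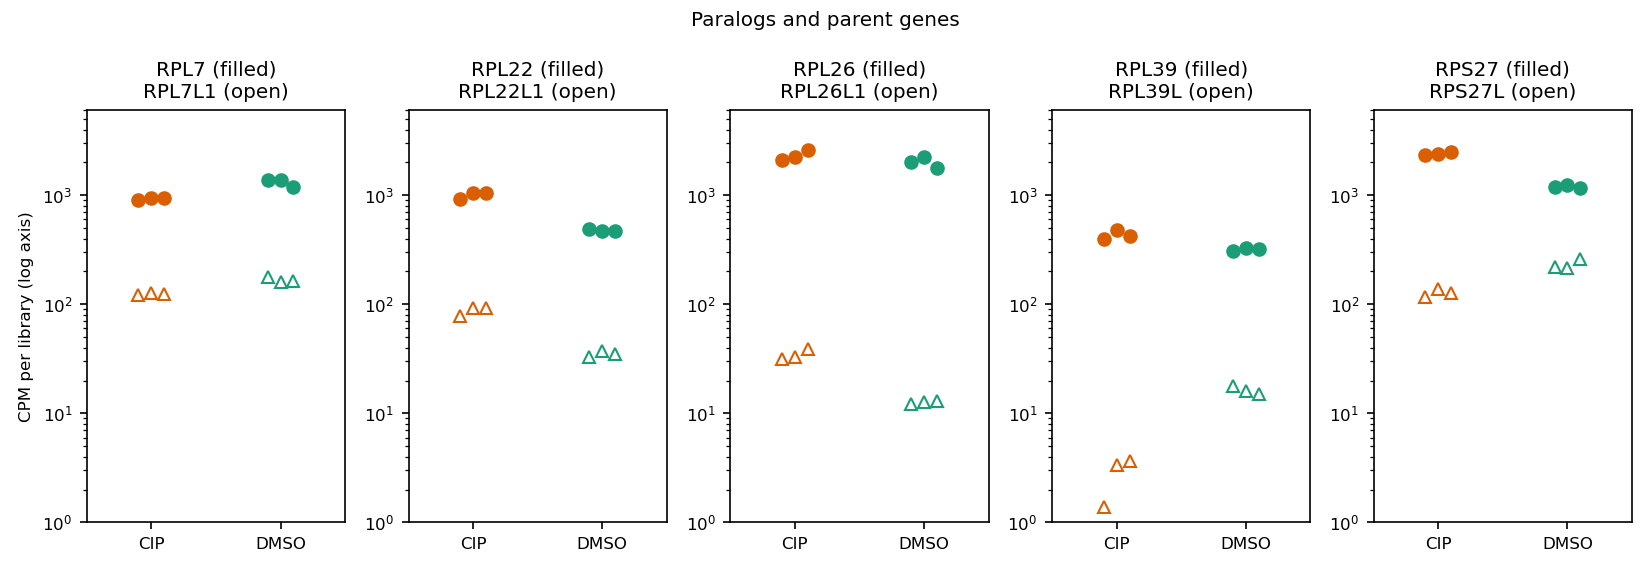
Level in each library of the 5 L paralogs (open triangles) and their parent genes (filled circles), CPM after TMM scaling on a log axis, CIP left and DMSO right. RPL39L and RPS27L lie lower in CIP while their parents lie higher, RPL7L1 and RPL7 are both lower, and RPL22L1 and RPL26L1 are higher.

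RPL7L1, an assembly factor of the large subunit related to RPL7, fell along with its parent, with 122, 127 and 124 CPM in CIP libraries, against 176, 160 and 165 CPM in DMSO libraries (chromosome 6, 42879616 to 42889900; -0.43 ± 0.07, edgeR adjusted p = 1.83e-06). Its share of the pair was 11.6% to 12.0% in CIP libraries and 10.4% to 12.2% in DMSO libraries and overlapped (exact permutation p = 0.4). RPL22L1, whose parent RPL22 limits it in the mouse, rose to 77.3, 93.1 and 91.6 CPM in CIP libraries, against 33.1, 37.1 and 34.8 CPM in DMSO libraries (chromosome 3, 170864875 to 170870195; 1.32 ± 0.10, edgeR adjusted p = 3.65e-14). RPL22 rose as well, to 916, 1041 and 1058 CPM in CIP libraries, against 487, 472 and 472 CPM in DMSO libraries (chromosome 1, 6185020 to 6199595; 1.08 ± 0.06). The share of RPL22L1 in that pair was 7.78% to 8.21% and 6.36% to 7.29% (exact permutation p = 0.1).

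RPL26L1, a close copy of RPL26 (84.25% identical over 438 coding bases), rose to 31.6, 32.9 and 38.6 CPM in CIP libraries, against 12.3, 12.7 and 13.1 CPM in DMSO libraries (chromosome 5, 172954094 to 172969771; 1.44 ± 0.14, edgeR adjusted p = 7.57e-11). Its share of the pair was 1.46% to 1.49% in CIP libraries and 0.561% to 0.725% in DMSO libraries (exact permutation p = 0.1). Its 3′ end shares stretches with another gene's transcript, so its level is uncertain. Adjusted over the 5 pairs by Benjamini-Hochberg, the exact permutation p of the shares was 0.125 for 4 pairs and 0.4 for RPL7L1.

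The ribosome genes FAU, RPS27A, RPL36AL and RACK1, outside the naming rule, were all higher, beside 34.9% of all genes tested. RACK1, the signalling scaffold on the small subunit head, averaged 2378 ± 201 CPM in CIP libraries and 1049 ± 40.5 CPM in DMSO libraries (1.18 ± 0.06). FAU, which encodes RPS30 as a fusion, averaged 3186 ± 75.9 CPM and 1476 ± 49.8 CPM (1.11 ± 0.06). RPL36AL averaged 395 ± 37.9 CPM and 207 ± 17.5 CPM (0.93 ± 0.07, SD over n = 3 each), whereas its relative RPL36A did not pass. RPS27A, made as a fusion with ubiquitin, had a log2 fold change of 0.37.

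Of 17 other genes with TOP mRNAs, which encode translation factors and similar proteins, 11 were higher and 5 lower. Their median log2 fold change was 0.54. The shares over all genes tested were 34.9% higher and 38.2% lower. EIF4B (1.60), EIF3F (1.47), HNRNPA1 (1.39), NPM1 (0.54) and EEF2 (0.44) were higher, and TPT1 (-0.25) and PABPC1 (-0.28) lower. EEF1A1, the elongation factor that brings tRNAs, had 133, 321 and 117 CPM in CIP libraries, against 47.3, 37.1 and 52.1 CPM in DMSO libraries (2.07 ± 0.52, edgeR adjusted p = 0.0212). The second CIP library was far above the others, and without it the log2 fold change was 1.47. The call was lost without any 1 of the DMSO libraries (adjusted p of 0.0739 without the first, 0.0808 without the second and 0.0665 without the third). Stretches shared with other genes were not examined for EEF1A1, and the counting of reads with several matches is not stated, so its level is uncertain.

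Among 14 genes of mTOR and S6 kinase signalling and TOP mRNA binding, 8 were higher and 2 lower, with a median of 0.55. Of all genes tested, 34.9% were higher and 38.2% lower, 73.1% in all, so a large called share is common here. LARP1 averaged 488 ± 5.81 CPM in CIP libraries and 250 ± 19.5 CPM in DMSO libraries (0.96 ± 0.07), and LARP4, which protects ribosomal protein mRNAs, was higher too (1.32 ± 0.11). EIF4E, the cap-binding protein, was higher (1.01 ± 0.10), while EIF4EBP1, which blocks it, fell to 25.9 ± 1.21 CPM in CIP libraries, against 75.3 ± 2.95 CPM in DMSO libraries (-1.54 ± 0.10, SD over n = 3 each, edgeR adjusted p = 1.59e-15). EIF4EBP1 lies on chromosome 8. RPS6KB2, an S6 kinase, was higher (1.01 ± 0.12), and MTOR did not pass (edgeR adjusted p = 0.788).

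Of 12 genes that escort ribosomal proteins to the nucleus and to assembly, or remove the excess, 8 were higher and 2 lower. Their median was 0.45, and 34.9% of all genes tested were higher and 38.2% lower. The importin IPO7, which carries ribosomal proteins into the nucleus, averaged 234 ± 11.6 CPM in CIP libraries and 50.1 ± 1.86 CPM in DMSO libraries (SD, n = 3 each; 2.22 ± 0.08, edgeR adjusted p = 1.22e-23). IPO4 (1.24), BCCIP, which escorts RPL23 (1.04), and UBE2O, which marks unassembled ribosomal proteins (0.75), were higher.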

How the data were processed

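The deposited values are raw counts, whole numbers listed by gene symbol with a file for each library, per the file headers. Libraries were made with a Lexogen QuantSeq 3′ kit, per the labels' protocols. The tools named are bcl2fastq 2.20.0.422, fastp, STAR and HTSeq, on GRCh38, per the submitters' processing notes, with strand and multi-mapping settings not given in the sources used here. Counts were tested with edgeR 4.0.16 (R 4.3.3; filterByExpr, TMM, robust quasi-likelihood, group alone, 2-sided) with Benjamini-Hochberg adjustment over 12844 genes. The TMM factors were 0.914 to 0.930 in CIP and 1.07 to 1.09 in DMSO libraries, and 3 counts equal 0.287 to 0.346 CPM. That floor covers counting error only. The SE is the absolute log2 fold change over the square root of F. In data simulated from the DMSO means, the fit recovered 39 of 67 genes changed 1.5-fold, 55 of 67 at 2-fold and 65 of 66 at 4-fold. It made 6 false calls over 12202 genes tested. Few genes were changed there, whereas 73.1% were called here, so the scaling was not tested under such broad change. No libraries were duplicates (chi-square per gene 3.82 to 7.66). Alternatives used other scalings, filters, limma-voom 3.58.1, DESeq2 1.42.0, a replicate block and each library left out.

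The members and gene lists were chosen with earlier results of these data known. Genes named were all L paralogs with parents, the 8 most changed members per direction, the 4 most abundant, those that did not pass, the 2 most changed per role, up to 4 per other list, and a few set by name. The 8 per direction were picked only among called genes whose libraries did not overlap, so that trait was a condition for naming them. Sequences were read from RefSeq promoters (GRCh38.p14) and GENCODE release 29 coding regions. Some genes are counted in the totals but not reported singly here.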

Additional observations from a re-analysis of the deposited data

How the results depend on the processing

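Of 77 called members, 71 kept the same call and direction under all 18 alternatives, and the exceptions were RPL18, RPL4, RPS6 and RPS7 (lost with library totals alone), RPL26 and RPL30. Scaling by library totals alone moved the most: it shifted the median log2 fold change to -0.26 over all tested genes, of large subunit genes to 0.59 and of small subunit genes to 0.49, so values there are relative to that shift. It also gave 5 lower genes in the small subunit and 4 lower signalling genes, and reversed RPL26 (-0.039, adjusted p = 0.658), RPLP1 (-0.21, 0.000657) and RPS10 (-0.12, 0.0475). It applies 1 factor per library, so every gene shifts alike. The median of all tested genes was -0.0558 with RLE scaling, -0.0797 with upper-quartile scaling, -0.20 with no filter on low counts, -0.0559 with DESeq2, and -0.0669 to -0.0445 with a library left out. For the small subunit, leaving out a library gave a median of 0.67 to 0.79. Without mitochondrial genes the members held 24.7% of counts in CIP and 17.1% in DMSO libraries; the cause of these shifts beyond fewer genes was not tested.

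Replicate numbers in the labels gave no sign of pairing. Deviations of same-numbered libraries correlated at -0.0188, -0.0271 and -0.0099, beside -0.0103 to 0.0282 for libraries with different numbers. With 3 libraries per group, these values cannot settle whether the replicates were paired in the experiment. With a replicate block 66 members were higher and 11 lower, with medians of 0.82 and 0.72 for the large and small subunit, and EEF1A1 was no longer called (adjusted p = 0.0901). The 12 to 36 counts of RPL39L limit the precision of its level in CIP libraries.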
